A study of Mus musculus with 12 samples.

Results

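The glutathione, thioredoxin and antioxidant enzyme genes were followed in mouse megakaryocytes, the bone marrow cells that shed platelets, after 6 h of dexamethasone, a synthetic glucocorticoid. The set holds 40 genes chosen by name. A gene was measured where a probe set carried that gene's symbol and no other, and 35 of the 40 were, out of 30142 named genes on the array. Where a gene has several such probe sets, the one with the highest mean over all 12 arrays stands for it. Each of the 35 had a single probe set, so this rule made no choice among them. Gclm, Glrx3, Prdx1, Prdx5 and Prdx6 are not analysed here. All 35 passed the filter on dim genes and were tested with 24265 genes in all.

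The cultures were grown from hematopoietic stem cells of male C57BL/6 mouse bone marrow. The labels give 3 days in thrombopoietin at 100 ng per ml, then a night in fresh medium with charcoal-stripped serum, and purification of the day 4 cells over an albumin gradient. Both groups share this history. Each of 6 cultures was divided between 100 nM dexamethasone and its vehicle for 6 h, which gives 6 arrays per group. A culture carries its replicate number from the sample titles, 1 to 6, the same in both groups. The labels also hold another culture number, which differs from this one for all but culture 1. The labels call the 6 cultures biological replicates without naming the mice behind them, so the p-values measure the spread between these cultures. Values are the deposited log2 levels. Array medians lay between 5.57 and 5.67. On each array the negative control probe sets gave a median of 6.15 to 6.39, called the background level here, and a 95th percentile of 9.98 to 10.39. A gene under the background level on all 12 arrays is called dim. All 10 megakaryocyte markers measured, among them Itga2b, Pf4 and Gp9, lay above that 95th percentile on all 12 arrays. Of the 35 measured members, 14 did so. The number of arrays limits the precision. In such cultures a change in the make-up of the cells and a change in RNA per cell cannot be told apart.

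Glutathione is a small peptide with a reactive thiol, built from glutamate, cysteine and glycine. Its synthesis is paced by glutamate-cysteine ligase, peroxidases and transferases spend it, and glutathione reductase restores it with NADPH. Thioredoxin is a small protein that serves as the parallel thiol donor, chiefly to peroxiredoxins and ribonucleotide reductase, and is restored by thioredoxin reductase. Many of these genes are classic targets of Nrf2 (gene Nfe2l2), which Keap1 holds in check and which binds the antioxidant response element together with small Maf proteins. In megakaryocytes and platelets, peroxide tone is known to bear on maturation and on platelet reactivity.

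RNA of Gclc, of Gsr and of a few other members was higher in dexamethasone, while most of the set did not pass the threshold. Of the 35 measured members, 7 were higher (Gclc, Gsr, Mgst3, Gstp1, Gsto1, Prdx2 and Gpx4) and 1 was lower (Txnrd1) at an adjusted p under 0.05 by limma over all genes tested. The other 27 did not pass. Over all genes tested, 7.39% were called higher, 4.56% lower and 12.0% in either direction. The members' 8 calls are 22.9% of those measured. The median change of the members was 0.107 on the log2 scale, and that of all genes tested was -0.013. The members were chosen with earlier results of these data known, so no test of the list was made. The change lay above 0 for 27 members and below 0 for 8. With genes kept only where they exceed the background level on at least 6 arrays, 11 of 31 members tested were called higher, and so were 16.8% of the 13050 genes then tested. In that setting 1 member was called lower, and 3427 of the 13050 genes were called in either direction. The single lower call was kept under 9 of 18 other settings.

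**Figure D1:**
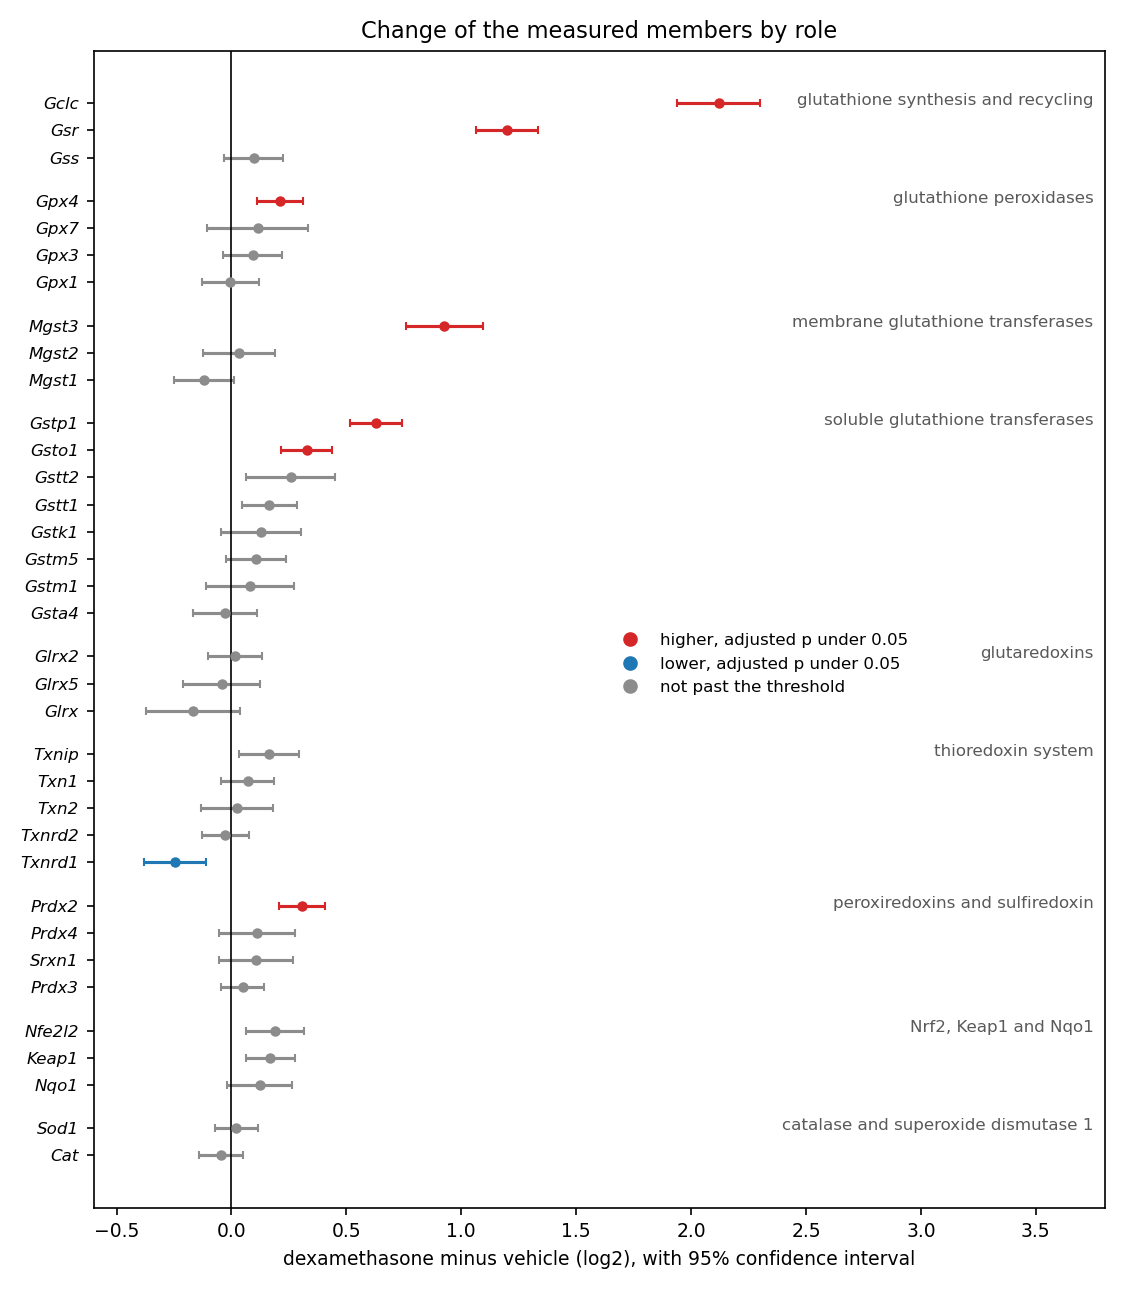
Change of each of the 35 measured members (dexamethasone minus vehicle, log2, points) with its 95% confidence interval, grouped by role. Gclc at 2.12 and Gsr at 1.20 lie far to the right, followed by Mgst3 at 0.93 and Gstp1 at 0.63, while Txnrd1 at -0.25 is the only blue point.

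Gclc encodes the catalytic subunit of glutamate-cysteine ligase, the enzyme that limits the rate of glutathione synthesis. Its level in vehicle ran from 10.36 to 11.05 with a median of 10.62, and in dexamethasone from 12.39 to 13.21 with a median of 12.64. Every dexamethasone array lay above every vehicle array by more than the whole spread of either group. The mean rose from 10.63 ± 0.25 to 12.75 ± 0.37 (SD, n = 6), a difference of 2.12 (SE 0.08) or 4.35-fold, with a 95% confidence interval of 3.83 to 4.93-fold and an adjusted p of 8.3e-07 by limma. The rise was seen in 6 of 6 cultures and ranged from 1.86 to 2.52 among them. Ordered by size of rise, Gclc stood at place 26 of the 24265 genes tested. Only 0.424% of the genes tested were both called higher and at least 2-fold up, and Gclc and Gsr were the 2 members among them.

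Gsr encodes glutathione reductase, which returns oxidised glutathione to its thiol form. The vehicle arrays were tightly grouped, from 11.22 to 11.36 with a median of 11.31. The dexamethasone arrays ran from 12.33 to 12.63 with a median of 12.52, and the groups did not overlap. The difference was 1.20 (SE 0.06), which is 2.29-fold with an interval of 2.09 to 2.52-fold (adjusted p = 4.71e-06 by limma), and the 6 cultures rose by 1.02 to 1.37. Gss encodes glutathione synthetase, which adds glycine in the last step. Its levels were 9.14 ± 0.09 and 9.24 ± 0.14, a difference of 0.10 with an interval of -0.03 to 0.23 and an adjusted p of 0.31 by limma, higher in 4 of 6 cultures. Of the 3 measured genes of synthesis and recycling, 2 rose and 1 did not pass.

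**Figure D2:**
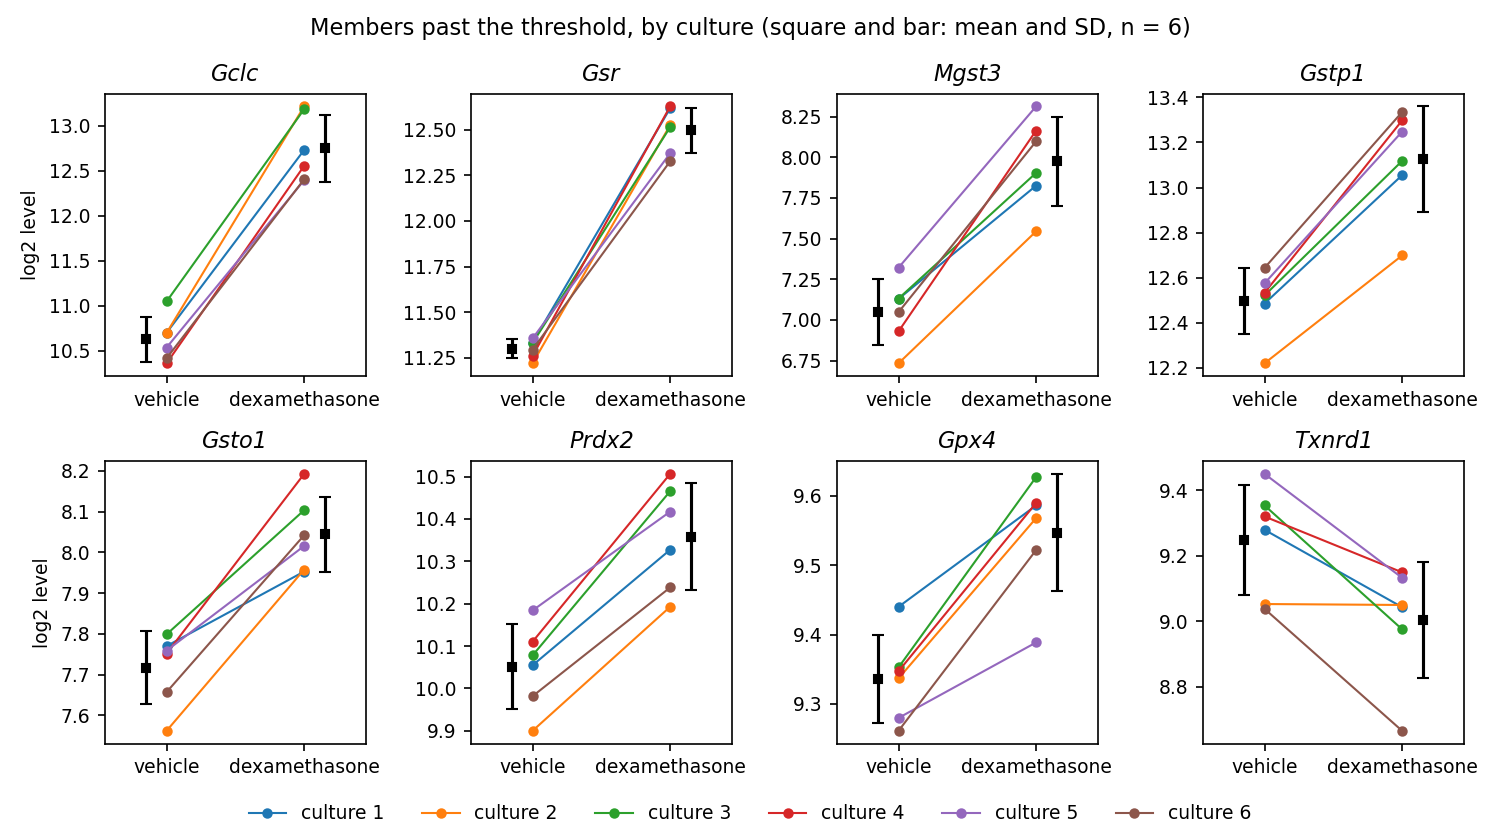
Levels (log2) of the 8 members past the threshold, with a line joining the vehicle and dexamethasone arrays of each culture and squares with bars for the mean and SD (n = 6). All lines of Gclc, Gsr, Mgst3, Gstp1, Gsto1, Prdx2 and Gpx4 slope upward, and the line of culture 2 for Txnrd1 is almost flat; each panel has its own scale.

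The glutathione peroxidases use glutathione to reduce peroxides, and Gpx1, Gpx3 and Gpx4 are selenoproteins. Gpx4, which acts on lipid peroxides within membranes, rose. Its vehicle levels ran from 9.26 to 9.44 with a median of 9.34 and its dexamethasone levels from 9.39 to 9.63 with a median of 9.58, so the groups overlapped slightly. The difference was 0.21 (SE 0.04, 1.16-fold) with an adjusted p of 0.0154 by limma, higher in 6 of 6 cultures. The call ended without culture 3 (adjusted p = 0.0545) and without culture 4 (adjusted p = 0.0523). It was lost in 4 of 18 other settings in all, with adjusted p up to 0.116 by limma. Gpx1, the main cytosolic peroxidase, was 16.38 ± 0.04 in vehicle and 16.38 ± 0.14 in dexamethasone, with an interval of the difference from -0.13 to 0.12. The secreted Gpx3 and the endoplasmic reticulum form Gpx7 were dim, and differed by 0.09 and 0.11.

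Membrane glutathione transferases handle lipid peroxides and leukotrienes. Mgst3 rose from a range of 6.73 to 7.32 (median 7.09) to a range of 7.54 to 8.31 (median 8.001), with no overlap. The difference was 0.93 (SE 0.07, 1.90-fold, interval 1.69 to 2.13-fold) with an adjusted p of 7.9e-05 by limma, and it ran from 0.70 to 1.24 among the cultures. Mgst1 was dim on all 12 arrays (a difference of -0.12, adjusted p = 0.229 by limma), and Mgst2 lay under the background level on 3, with a difference of 0.03 and an adjusted p of 0.795. The bases ahead of the Mgst3 start are shown because it is the member after Gclc and Gsr that rose most; RefSeq (GRCm38.p6) places them at chr1:167393842-167393941, minus strand, and capitals mark GGGCGG, the letters bound by Sp1, with the last box running past the stretch shown.
Mgst3: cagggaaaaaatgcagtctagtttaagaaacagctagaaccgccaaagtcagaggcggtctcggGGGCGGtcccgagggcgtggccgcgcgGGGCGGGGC

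Soluble glutathione transferases attach glutathione to electrophiles, and 2 of the 8 measured rose. Gstp1, the pi class enzyme, ran from 12.22 to 12.64 in vehicle (median 12.53) and from 12.70 to 13.33 in dexamethasone (median 13.18). The groups did not overlap, and culture 2 was the lowest in both. The difference was 0.63 (SE 0.05, 1.55-fold, interval 1.43 to 1.67-fold) with an adjusted p of 7.82e-05 by limma, higher in 6 of 6 cultures. Gstp2 is a close copy of Gstp1 in the mouse, and how far the probe set tells them apart was not tested. Gsto1, an omega class enzyme that reduces mixed disulfides and dehydroascorbate, ran from 7.56 to 7.80 (median 7.76) and from 7.95 to 8.19 (median 8.03), again without overlap. Its difference was 0.33 (SE 0.05, 1.26-fold) with an adjusted p of 0.00291 by limma. The theta class genes Gstt1 and Gstt2 were higher in dexamethasone in 6 of 6 cultures, by 0.17 and 0.26, and did not pass (adjusted p = 0.0765 and 0.0885 by limma). Gstk1, Gstm1, Gstm5 and Gsta4 differed by 0.13, 0.08, 0.11 and -0.03 and did not pass, and Gsta4 was dim. Mu class genes resemble one another in sequence, and sharing of signal between them was not tested.

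The promoter letters were searched in windows of 250 bases before to 50 after each RefSeq start, which were at hand for 35 of the 40 listed genes. Gclc, Gsr, Gsta4, Gstt2 and Prdx6 were not searched. The motifs were TGACNNNGC (the core of the antioxidant response element), TGACTCAGC and TGAGTCAGC (forms shared with the NF-E2 site), the full palindrome of the glucocorticoid response element, AGAACA (its left arm) and GGGCGG, each on both strands. TGACTCAGC is a special case of TGACNNNGC, and AGAACA lies within the full glucocorticoid element. The searches for TGACTCAGC, TGAGTCAGC, GGGCGG and AGAACA were added after the sequences were seen. TGACNNNGC lay in 8 of 46 member windows (17.4%) and in 12.4% of all 32851 windows. The 8 were windows of Nfe2l2, Srxn1, Gstm5, Gclm, Prdx1, Mgst1, Txnrd1 and Sod1. None of these genes was called higher, and Gclm and Prdx1 were not measured. TGAGTCAGC lay in 2 member windows, those of Gstp1 and Srxn1, and in 0.414% of all windows. TGACTCAGC lay in 1 member window, that of Prdx1, and in 0.454% of all. The full glucocorticoid element lay in 0 member windows and 3 of all windows. AGAACA lay in 21.7% of member windows and 19.0% of all, and GGGCGG in 69.6% and 35.7%. Among members called higher, AGAACA lay in the window of Mgst3 and in none of Gstp1, Gsto1, Prdx2 and Gpx4. These are matches of letters and not sites of binding. The pair with TGAGTCAGC (in capitals) is shown because Gstp1 rose and Srxn1 did not pass; the stretches are chr19:4037948-4038016, minus strand, and chr2:152105449-152105517, plus strand.
Gstp1: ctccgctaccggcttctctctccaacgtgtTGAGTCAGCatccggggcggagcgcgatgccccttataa
Srxn1: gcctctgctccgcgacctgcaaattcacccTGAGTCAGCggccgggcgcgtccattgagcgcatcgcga

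Glutaredoxins use glutathione to remove it from protein thiols or, for Glrx3 and Glrx5, to carry iron-sulfur clusters. None of the 3 measured passed. Glrx, the cytosolic form, ran from 7.84 to 8.25 in vehicle (median 8.01) and from 7.63 to 8.03 in dexamethasone (median 7.89), a difference of -0.17 with an interval of -0.37 to 0.04. The mitochondrial Glrx2 and Glrx5 differed by 0.02 and -0.04, with adjusted p of 0.861 and 0.756 by limma.

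Of the 5 genes of the thioredoxin system, 1 fell and 4 did not pass. Txnrd1, the cytosolic thioredoxin reductase and a selenoprotein, ran from 9.04 to 9.45 in vehicle (median 9.30) and from 8.67 to 9.15 in dexamethasone (median 9.05). The groups overlapped: the lowest vehicle array, that of culture 6 at 9.04, lay under the dexamethasone arrays of cultures 1, 2, 4 and 5. Culture 2 was 9.05 in both. The difference was -0.25 (SE 0.06, 1.19-fold lower) with an adjusted p of 0.0281 by limma, lower in 6 of 6 cultures, with changes from -0.38 to -0.003. Without the pairing of arrays by culture the adjusted p was 0.113, and leaving out culture 1, 3, 4, 5 or 6 ended the call with adjusted p from 0.0575 to 0.087. Thioredoxin itself, Txn1, was 15.40 ± 0.11 and 15.47 ± 0.13. The mitochondrial Txn2 and Txnrd2 differed by 0.02 and -0.03. Txnip, which binds thioredoxin and restrains glucose uptake, was 13.77 ± 0.16 and 13.93 ± 0.11, a difference of 0.17 (adjusted p = 0.104 by limma) seen in 5 of 6 cultures. Txnrd1 has 3 starts in the RefSeq table, and the window of 1 of them holds TGACNNNGC on the minus strand of the gene (capitals). It is shown as the member that fell; it lies at chr10:82859084-82859152, plus strand.
Txnrd1: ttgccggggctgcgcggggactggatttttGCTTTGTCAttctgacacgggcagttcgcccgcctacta

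Peroxiredoxins destroy hydrogen peroxide with thioredoxin as donor, and sulfiredoxin (Srxn1) repairs them when they are overoxidised. Prdx2, an abundant cytosolic form best known from red cells, rose from a range of 9.90 to 10.18 (median 10.07) to one of 10.19 to 10.51 (median 10.37). The groups just failed to overlap. The difference was 0.31 (SE 0.04, 1.24-fold) with an adjusted p of 0.00235 by limma and was even among the cultures, from 0.23 to 0.40. The mitochondrial Prdx3 was 12.81 ± 0.10 and 12.86 ± 0.11, and the endoplasmic reticulum form Prdx4 was 9.49 ± 0.11 and 9.61 ± 0.19. Srxn1 was 11.91 ± 0.13 and 12.02 ± 0.15, with an interval of the difference from -0.06 to 0.27. None of these 3 passed (adjusted p from 0.365 to 0.498 by limma).

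The regulators stood just short of the threshold. Nfe2l2 ran from 14.67 to 14.87 in vehicle (median 14.79) and from 14.85 to 15.15 in dexamethasone (median 14.96). Its difference was 0.19 (SE 0.05) with an adjusted p of 0.0581 by limma, higher in 6 of 6 cultures. Keap1 ran from 7.51 to 7.73 (median 7.59) and from 7.75 to 7.82 (median 7.78), a difference of 0.17 (SE 0.05) with an adjusted p of 0.0513 and no overlap. Of other settings, 5 of 18 called Nfe2l2 and 6 of 18 called Keap1. Nqo1, a quinone reductase used as a standard readout of Nrf2, was 11.70 ± 0.28 and 11.82 ± 0.17 with an interval of the difference from -0.02 to 0.26 (adjusted p = 0.252). The Nfe2l2 window is shown because it carries TGACNNNGC near its far end (capitals, chr2:75704865-75704913, minus strand).
Nfe2l2: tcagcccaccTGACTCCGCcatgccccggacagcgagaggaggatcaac

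Catalase and superoxide dismutase 1 need neither thiol. Cat ran from 13.15 to 13.40 in vehicle (median 13.29) and from 13.12 to 13.40 in dexamethasone (median 13.21), an interval of the difference from -0.14 to 0.05. Sod1 was 17.34 ± 0.07 and 17.36 ± 0.06, with an interval from -0.07 to 0.12. The groups overlapped for both genes (adjusted p = 0.544 and 0.774 by limma).

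Of the 35 members, 7 had all 6 dexamethasone arrays above all 6 vehicle arrays (Gclc, Gsr, Mgst3, Gstp1, Gsto1, Prdx2 and Keap1) and 0 had all below; over all genes tested these shares were 4.1% and 2.63%. Among the 5 selenoproteins of the set, 1 rose, 1 fell and 3 did not pass. Among 6 members of the mitochondrion (Glrx2, Glrx5, Txn2, Txnrd2, Prdx3 and Gstk1), 0 passed. These last groupings were made after the values were seen and were not tested.

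Other genes of the pathway came from 8 lists. The share of genes called ran from 8.33% (superoxide, heme and iron defence) to 42.9% (NADPH oxidase), against 12.0% of all genes tested. Of 25 other glutathione genes tested, 3 rose, 0 fell and 22 did not pass, a share of 12.0% that equals the background. Slc3a2, the heavy chain of several amino acid exchangers including the cystine carrier, rose from 11.23 ± 0.05 to 12.11 ± 0.13 (0.88, SE 0.06, adjusted p = 3.65e-05 by limma), with no overlap. The light chain that makes it the cystine carrier, Slc7a11, was 8.41 ± 0.22 and 8.30 ± 0.16 (adjusted p = 0.276) and was higher in 1 of 6 cultures. Ggct, which breaks gamma-glutamyl amino acids down, rose by 0.55 (SE 0.05, adjusted p = 0.000133), and Gsta2 rose by 0.24 (SE 0.05, adjusted p = 0.0162). The call of Gsta2 was kept in 15 of 18 other settings, with adjusted p up to 0.11 by limma.

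Among 11 other Nrf2 targets tested, 1 rose and 1 fell, a share called of 18.2% against 12.0% of all genes tested. The rise was that of Abcc1, a pump for glutathione conjugates, by 0.44 (SE 0.06, adjusted p = 0.00217 by limma), and Abcc4 fell by 0.19 (SE 0.05, adjusted p = 0.0449), a call kept in 8 of 18 other settings. Of 12 superoxide, heme and iron defence genes, Blvrb, biliverdin reductase B, rose by 0.51 (SE 0.08, adjusted p = 0.00332) and the other 11 did not pass. Hmox1, heme oxygenase 1, was 6.26 ± 0.15 and 6.38 ± 0.16, under the background level on 3 of 12 arrays (adjusted p = 0.282). Sod2, the mitochondrial superoxide dismutase, was 8.20 ± 0.08 and 8.23 ± 0.06 (adjusted p = 0.71). Of 14 partners and regulators of Nrf2, Bach1, a repressor at antioxidant response elements, rose by 0.31 (SE 0.05, adjusted p = 0.00444), Sqstm1, which binds Keap1, fell by 0.20 (SE 0.05, adjusted p = 0.0351; kept in 10 of 18 other settings), and 12 did not pass. The share of these 14 called was 14.3%.

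Selenium supply bears on Gpx1, Gpx4 and Txnrd1. Of 20 selenoproteins and genes of their synthesis, 3 rose, 0 fell and 17 did not pass. Lrp8, a lipoprotein receptor that takes up selenoprotein P in some tissues, rose 10.5-fold, from 7.63 ± 0.14 to 11.03 ± 0.27 (adjusted p = 1.26e-07 by limma). Sephs2, which makes the selenium donor for selenocysteine, rose by 0.36 (SE 0.06, adjusted p = 0.00413), and Selenom rose by 0.28 (SE 0.05, adjusted p = 0.00905), with an adjusted p of 0.0878 without the pairing of arrays by culture.

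**Figure D3:**
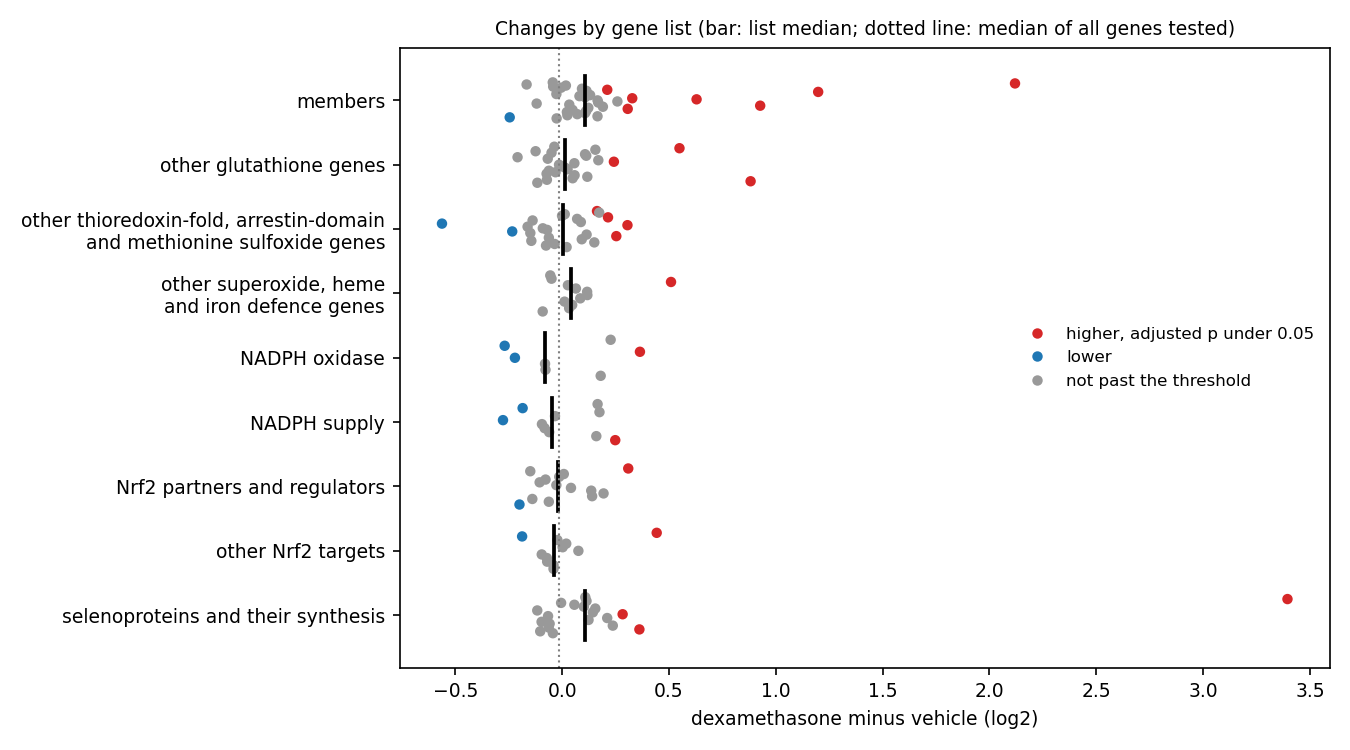
Changes (dexamethasone minus vehicle, log2) of the members and of 8 other lists, 1 point per gene tested, with a bar at each list's median and a dotted line at -0.013, the median of all genes tested. The list medians run from -0.078 (NADPH oxidase) to 0.107 (members), and Lrp8 lies alone at 3.39.

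The cultures differed among themselves. In vehicle, culture 2 gave the lowest level for 20 of the 35 members (57.1%), and over all genes tested it was the lowest for 25.3%. In dexamethasone it was the lowest for 15 (42.9%, against 18.8% over all genes). The median deviation of the members from their vehicle mean was -0.105 in culture 2 and between -0.001 and 0.05 in the others. In dexamethasone it was -0.087 in culture 2, -0.071 in culture 6, which was the lowest for 9 members (25.7%), and 0.098 in culture 4. Between cultures Gclc varied most, with an SD of 0.29 between culture means, and Txnrd2 least, with 0.03. Without culture 2 the members gave 7 higher and 1 lower, and the changes of Gclc, Gsr, Mgst3 and Gstp1 were 2.04, 1.18, 0.95 and 0.66.

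**Figure D4:**
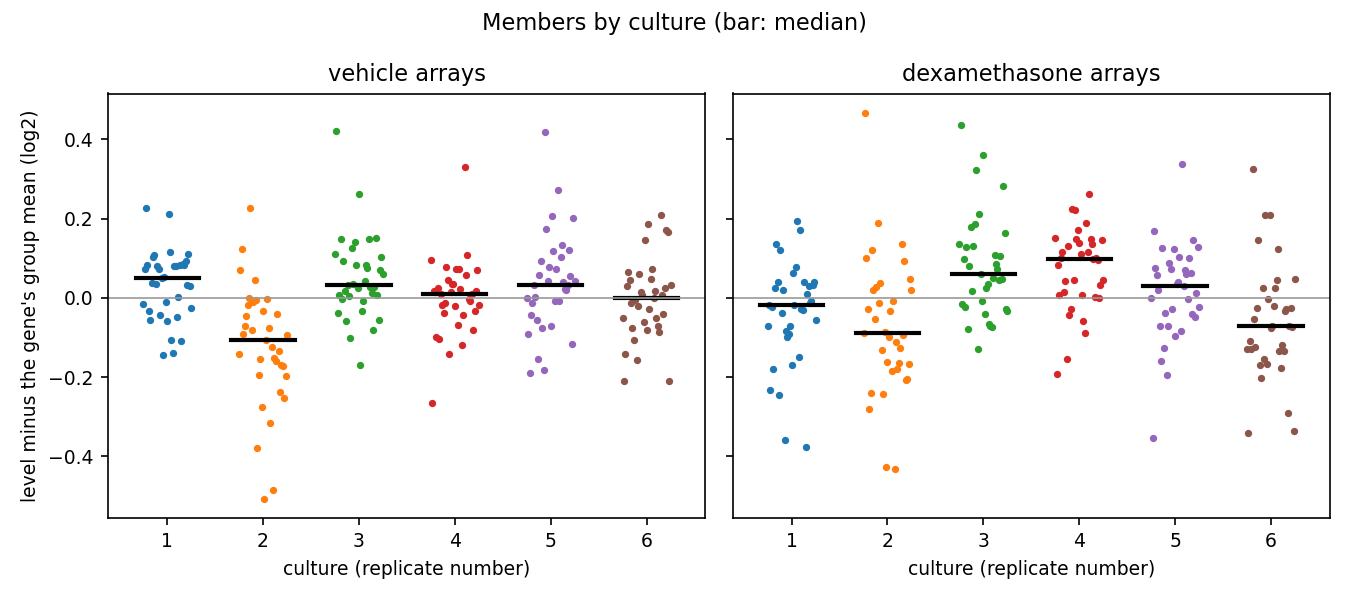
Level of each of the 35 members minus its own group mean (log2), by culture, for the vehicle arrays on the left and the dexamethasone arrays on the right, with a bar at the median. In vehicle the median of culture 2 lies at -0.105, below every other culture, and in dexamethasone culture 4 is the highest at 0.098 and culture 2 the lowest at -0.087.

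Cell type markers were read beside these results. The share of genes called was 46.2% for the neutrophil list and 44.4% for the mast cell and basophil list, against 12.0% of all genes tested. For the other marker lists it ran from 0.0% (lymphocyte) to 20.0% (megakaryocyte). None of these lists was tested as a set. Of the 10 megakaryocyte markers, 8 did not pass. Tubb1, the platelet beta tubulin, fell from 13.38 ± 0.39 to 12.24 ± 0.47 (2.21-fold lower, adjusted p = 4.71e-06 by limma) in 6 of 6 cultures with no overlap, and Gp9, a subunit of the von Willebrand factor receptor, rose 1.35-fold (adjusted p = 0.00143) in 6 of 6. Of 13 neutrophil markers, 2 rose (Lcn2 and Mmp8) and 4 fell (S100a8, S100a9, Camp and Ltf). Lcn2 lay under the background level on 11 of 12 arrays, Ltf on 10 and Mmp8 on 3. The brightest, S100a8 and S100a9, fell by 0.51 and 0.77 in 6 of 6 cultures, with an SD of 1.37 and 1.24 between culture means. The summed signal of the 13 (log2 of the sum of linear values) ran from 11.87 to 14.56 in vehicle and from 10.69 to 13.89 in dexamethasone. Of 9 mast cell and basophil markers tested, 3 rose (Cpa3, Kit and Gata2) and 1 fell (Mcpt8), and the summed signal of the 10 measured ran from 9.92 to 10.16 and from 10.21 to 10.48. Of 6 erythroid markers tested, Tfrc fell and 5 did not pass, and 5 of the 8 measured, among them Klf1 and Slc4a1, were dim. Of 10 monocyte and macrophage markers, 1 fell (Ccr2), and 5 were dim (Csf1r, Mrc1, C1qa, C1qb and Cd14). Their summed signal lay between 17.29 and 17.61 over both groups, and nearly all of it was Lyz2. Lyz2 alone ran from 17.28 to 17.56 in vehicle and from 17.41 to 17.61 in dexamethasone. Of 8 lymphocyte markers tested, 0 passed, and 8 of the 9 measured were dim. These markers were named after their values were seen. Of the mast cell markers 4 of 10 were dim, and of the neutrophil markers 2 of 13. The part of the megakaryocyte, neutrophil and mast cell genes in the changes of the members was not tested.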

How the data were processed

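RNA from 6 cultures, each split between both treatments, was measured on 12 1-colour arrays, 6 per treatment. The authors' deposited table gives 1 log2 value per probe set and array; how background and scaling were handled is not stated in the labels, and the unit follows from their range, 2.07 to 19.93. Values were used as deposited. The array's annotation gave 1 symbol to 30604 probe sets and several to 2146, which were not named; 22818 gene numbers matched RefSeq GRCm38.p6, which updated 827 symbols. Genes entered the test when at least 6 arrays placed them over that array's 25th percentile. Limma 3.58.1 in R 4.3.3 (lmFit, eBayes) was fitted over 24265 genes with culture as a block, two-sided, with Benjamini-Hochberg adjustment, and called at an adjusted p under 0.05. It was also run on simulated data with culture effects built in, which cannot check the pairing of the real arrays. The treatment protocol says that cultures were split, which gives the pairing; deviations of arrays of the same number correlated from 0.049 to 0.247, over 0.1 in 4 of 6 pairs. The members and lists were chosen with earlier results of these data known. All members are named, with the range per group for those called with a change of at least 0.3 and for the largest change of each role; of other lists, up to 4 called genes with the smallest p are named, plus Slc7a11, Hmox1, Sod2 and Lrp8. Motifs were searched in RefSeq promoter windows; motifs in proteins were planned and not searched.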

Additional observations from a re-analysis of the deposited data

Results flagged for a closer look

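Of 105 series of 6 values (35 members, as vehicle levels, dexamethasone levels and changes per culture), 6 had 1 sample whose gap to the nearest other exceeded Dixon's 95% critical share of the whole range. Chance flags about 1 in 20 such groups. Among vehicle levels, Gstp1 was 12.22 in culture 2, against 12.49 to 12.64 in the others, and Gstt1 was 11.91 in culture 3, against 11.57 to 11.63. Among dexamethasone levels, Txnrd1 was 8.67 in culture 6, against 8.98 to 9.15, Prdx4 was 9.23 in culture 1, against 9.57 to 9.74, and Srxn1 was 11.73 in culture 6, against 11.98 to 12.13. The change of Nqo1 was 0.43 in culture 2, where its vehicle level was the lowest of the 6, and at most 0.14 in the others. Without culture 6 the fall of Txnrd1 was 0.22 with an adjusted p of 0.0797 by limma.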

How the results depend on the processing

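The calls of Gclc, Gsr, Mgst3, Gstp1, Gsto1 and Prdx2 held in all 18 other settings, with Gclc between 2.02 and 2.17. Gpx4 was called in 14 and Txnrd1 in 9 of 18. Not every setting alters a member's own values. The other filters and the averaging of probe sets change only the genes fitted beside it. Members higher numbered 11 of 31 tested with the negative control median as filter, where 16.8% of all genes were called higher, and 6 to 8 when 1 culture was left out. Members lower numbered 0 with array median centring, without the replicate block, with a random replicate block and with all probe sets fitted, and 0 to 1 when 1 culture was left out. Over all genes, higher calls were 805 and lower calls 403 with all probe sets fitted, 731 and 538 without cultures 2 and 3, and 1164 to 1520 and 712 to 853 when 1 culture was left out. Lower calls were 1738 after quantile normalization and 726 after array median centring; higher genes were then 44.9% and 70.3% of calls, against 61.9% as deposited. Without the replicate block, Txnrd1 lost its call (adjusted p = 0.113), Keap1 gained one (adjusted p = 0.0412), and no other member call changed. The members' median change ran from 0.058 to 0.128. Signs of changes near 0 turned, none past the threshold: after quantile normalization for Gsta4 (0.005), Glrx2 (-0.038), Txn2 (-0.041), Sod1 (-0.053) and Sod2 (-0.021), after centring for Gpx1 (0.016), when 1 culture was left out for Gpx1 (-0.032 to 0.034), Mgst2 (-0.034 to 0.064), Glrx2 (-0.007 to 0.049) and Txn2 (-0.044 to 0.063), and without cultures 2 and 3 for Gpx1 (0.010), Glrx2 (-0.021), Glrx5 (0.054) and Txn2 (-0.052). The cause of these changes was not tested. Dim probe sets limit what can be read of Gpx3, Gpx7, Mgst1 and Gsta4.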

Other observations

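Of 7 NADPH oxidase genes tested, Ncf1, a cytosolic activating subunit, rose by 0.36 (SE 0.06, adjusted p = 0.00485 by limma, 6 of 6 cultures), Ncf4 fell by 0.22 (SE 0.05; kept in 12 of 18 other settings) and the catalytic subunit Cybb fell by 0.27 (SE 0.06; kept in 9 of 17, adjusted p = 0.126 without the pairing), at levels under the negative control median of the array on 7 of 12. The other 4 did not pass, so 42.9% of the 7 were called, against 12.0% of all genes tested. Of 10 genes that supply NADPH, Taldo1 of the pentose phosphate pathway rose by 0.25 (SE 0.05, adjusted p = 0.01), Mthfd1 of the folate cycle fell by 0.28 (SE 0.05, adjusted p = 0.00825), Idh2 fell by 0.19 (SE 0.04; kept in 10 of 18, adjusted p up to 0.144) and 7 did not pass.

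Of 24 other thioredoxin-fold, arrestin-domain and methionine sulfoxide genes, 4 rose, 2 fell and 18 did not pass. Sesn1 and Sesn2, stress-induced relatives that restrain mTOR, went opposite ways: Sesn1 fell by 0.56 (SE 0.05, adjusted p = 0.000103 by limma) in 6 of 6 cultures, and Sesn2 rose by 0.31 (SE 0.06, adjusted p = 0.0108) in 6 of 6. The call of Sesn2 was kept in 16 of 18 other settings, with adjusted p up to 0.111 by limma. Tmx3, a membrane disulfide isomerase, fell by 0.23 (SE 0.05; kept in 11 of 18). Arrdc2 rose by 0.16 (SE 0.04) while dim on all 12 arrays, a call kept in 6 of 16 other settings (adjusted p up to 0.18).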
